A study of Mus musculus with 8 samples.

Results

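The 10 genes described here encode transcription factors that direct skeletal cells to their fates: Sox5, Sox6, Sox9, Runx2, Runx3, Sp7, Mef2c, Dlx5, Scx and Ebf3. They were chosen by name, for their known roles, from the 31053 genes of a single-cell count matrix of mouse tibia, and all 10 were found in it. Cells came from 3 mice at P56 (8 weeks) that were MMP14 F/+ and carried COL10A1cre, the R26-tdT reporter and Col1a1-2.3-GFP, so every cell carried 1 floxed Mmp14 allele along with the Cre. The Cre acts in hypertrophic chondrocytes (HCs) and leaves them and their descendants with tdTomato, and the GFP stands under a 2.3 kb Col1a1 promoter that is active in osteoblasts. Cells were digested from trabecular bone and from some of the growth plate, most blood was discarded with the early digests, and tdTomato+ cells were enriched, so cell numbers do not give the makeup of the bone. All 8 labelled samples belong to 1 group, and their barcodes lie in 1 pooled matrix without a mark of sample or mouse. There is no replicate, no test was possible, and every interval below is an exact 95% interval of counting error only.

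The matrix held 12564 barcodes and 91463572 unique molecular identifiers (UMIs, 1 per captured transcript). The 4472 barcodes with at least 1600 genes, the study's floor, were used, at a median of 10451.5 UMIs. Cells were gated on raw UMIs of marker genes that are not among the 10 factors. The Col2a1 gate (at least 10 Col2a1 UMIs, at most 1 of Prg4) held 243 chondrocyte-type cells. The Col10a1/Ihh gate (at least 5 UMIs of both together) held 79. The Prg4/Cilp gate (at least 2 UMIs together, and Acan) held 197 cells of articular type. The Bglap gate (at least 20 UMIs) held 54 cells of osteoblast type. The Cxcl12/Lepr gate (at least 20 Cxcl12 UMIs, and 2 of Lepr and Adipoq together) held 23 stromal cells. The Dcn/Col3a1 gate (at least 3 UMIs of each) held 164 fibroblast-type cells, and the Ptprc gate (at least 1 UMI) held 3286 blood-type cells. The label calls the cells chondro-osteogenic, but only 541 barcodes entered a skeletal gate. Of the markers that the gates did not use, 11 of 11 chondrocyte markers were at least 2-fold above the other barcodes in the Col2a1 gate, 10 of 10 osteoblast markers in the Bglap gate, 9 of 9 stromal markers in the Cxcl12/Lepr gate, 7 of 7 articular markers in the Prg4/Cilp gate and 8 of 9 fibroblast or tendon markers in the Dcn/Col3a1 gate. In the Col10a1/Ihh gate 7 of 7 hypertrophic, 11 of 11 chondrocyte, 5 of 7 articular and 5 of 10 osteoblast markers were raised. Markers of other names were raised elsewhere too, among them 10 of 10 osteoblast and 7 of 7 hypertrophic markers in the Col2a1 gate, 7 of 7 hypertrophic markers in the Bglap gate, 8 of 11 chondrocyte markers in the Prg4/Cilp gate, and 9 of 10 osteoblast and 7 of 7 articular markers in the Dcn/Col3a1 gate.

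The gates were not exclusive, and 200 of the 541 skeletal barcodes met more than 1. In the Bglap gate, 25 of 54 cells were also in the Col2a1 gate, at a median of 32457 UMIs against 17423 in the other 29, and 10 of 11 chondrocyte markers were raised in the gate as a whole. The Dcn/Col3a1 gate shared 81 cells with the Prg4/Cilp gate, and the Col10a1/Ihh gate shared 43 with the Col2a1 gate and 35 with the Prg4/Cilp gate. Ptprc UMIs lay in 4.35% to 25.9% of cells of the skeletal gates. Several results that rest on shared cells are given with and without them. Whether such cells were doublets or held free RNA was not tested, and a doublet caller marked 6 of the 541.

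Sox9 is required for cells to become and remain chondrocytes, and it acts on cartilage genes such as Col2a1 and Acan together with its relatives Sox5 and Sox6, which bind DNA beside it. Runx2 is required for osteoblasts and drives chondrocyte hypertrophy, a role in which Runx3 overlaps with it, and Sp7 (osterix) acts after Runx2 in osteoblasts. Dlx5 is a homeobox activator of osteoblast genes, Mef2c promotes hypertrophy and Col10a1 expression, Scx (scleraxis) directs tendon and ligament cells, and Ebf3 maintains the Cxcl12-abundant stroma of the marrow. Several of them also work outside the skeleton, Runx3 and Mef2c in lymphocytes and Sox6 in red cell precursors.

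Runx2 and Runx3 were found together in single cells of cartilage and in a type of blood cell (below), so the windows in front of their transcription starts are shown. Runx proteins bind TGTGGT, or ACCACA on the other strand, and these letters are in capitals wherever they occur. The windows come from RefSeq (GRCm38.p6) and are cut where they reach an annotated start. The Runx2 window is chr17:44814798-44814877 on the minus strand, in front of the first exon of the gene (ENSMUSG00000039153, chr17:44495987-44814797). Runx3 (ENSMUSG00000070691, chr4:135120652-135177990, plus strand) has a distal window at chr4:135120395-135120644, in front of the gene, and a proximal one at chr4:135152295-135152495, inside an intron of the longer transcript.
Runx2: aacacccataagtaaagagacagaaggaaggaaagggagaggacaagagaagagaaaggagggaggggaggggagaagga
Runx3 distal: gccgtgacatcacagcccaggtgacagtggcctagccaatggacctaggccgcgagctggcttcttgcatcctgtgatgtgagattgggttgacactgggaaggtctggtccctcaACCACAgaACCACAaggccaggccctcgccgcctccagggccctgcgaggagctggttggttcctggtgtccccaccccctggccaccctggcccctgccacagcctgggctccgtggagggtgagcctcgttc
Runx3 proximal: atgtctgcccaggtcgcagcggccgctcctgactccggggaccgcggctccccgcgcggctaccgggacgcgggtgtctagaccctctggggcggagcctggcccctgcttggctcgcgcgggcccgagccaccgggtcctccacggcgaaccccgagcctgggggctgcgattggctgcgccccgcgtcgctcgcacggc
The distal Runx3 window held the motif 2 times, starting 134 and 126 bases before its end, while the 80 bases of Runx2 and the 201 bases of the proximal Runx3 window held none. The whole RefSeq window of Runx2, 250 bases at chr17:44814628-44814877, runs into the gene and held the motif 1 time there. Of all 32851 windows of 250 bases, 14.05% held at least 1 such motif and 1.27% at least 2. The proximal Runx3 window was 77.1% G or C with 28 CpG, the distal window 65.2% with 8, and the Runx2 window 50% with none, against medians of 52.4% and 6 over windows of 250 bases. A match of letters is a description and not a binding site. Reads from the 3′ end of transcripts do not tell which start was used.

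Levels are given as UMIs per 1000000 UMIs of a gate (CPM). Some of the 10 genes were seen mostly in skeletal gates and others were shared with blood. Of the UMIs of Sox9 in barcodes at the floor, 98.6% lay in skeletal gates, and the values for Dlx5, Sp7, Scx, Sox5 and Ebf3 were 97.0%, 95.7%, 93.7%, 92.8% and 82.4%. For Runx2 it was 41.6%, for Mef2c 24.8%, for Sox6 24.5% and for Runx3 21.8%. Most UMIs of Runx3 (71.5%), Mef2c (63.1%) and Runx2 (52.2%) lay in Ptprc barcodes outside the skeletal gates. For Sox6, 54.7% lay outside all of these gates. The plot of levels by gate shows these patterns.

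**Figure D1:**
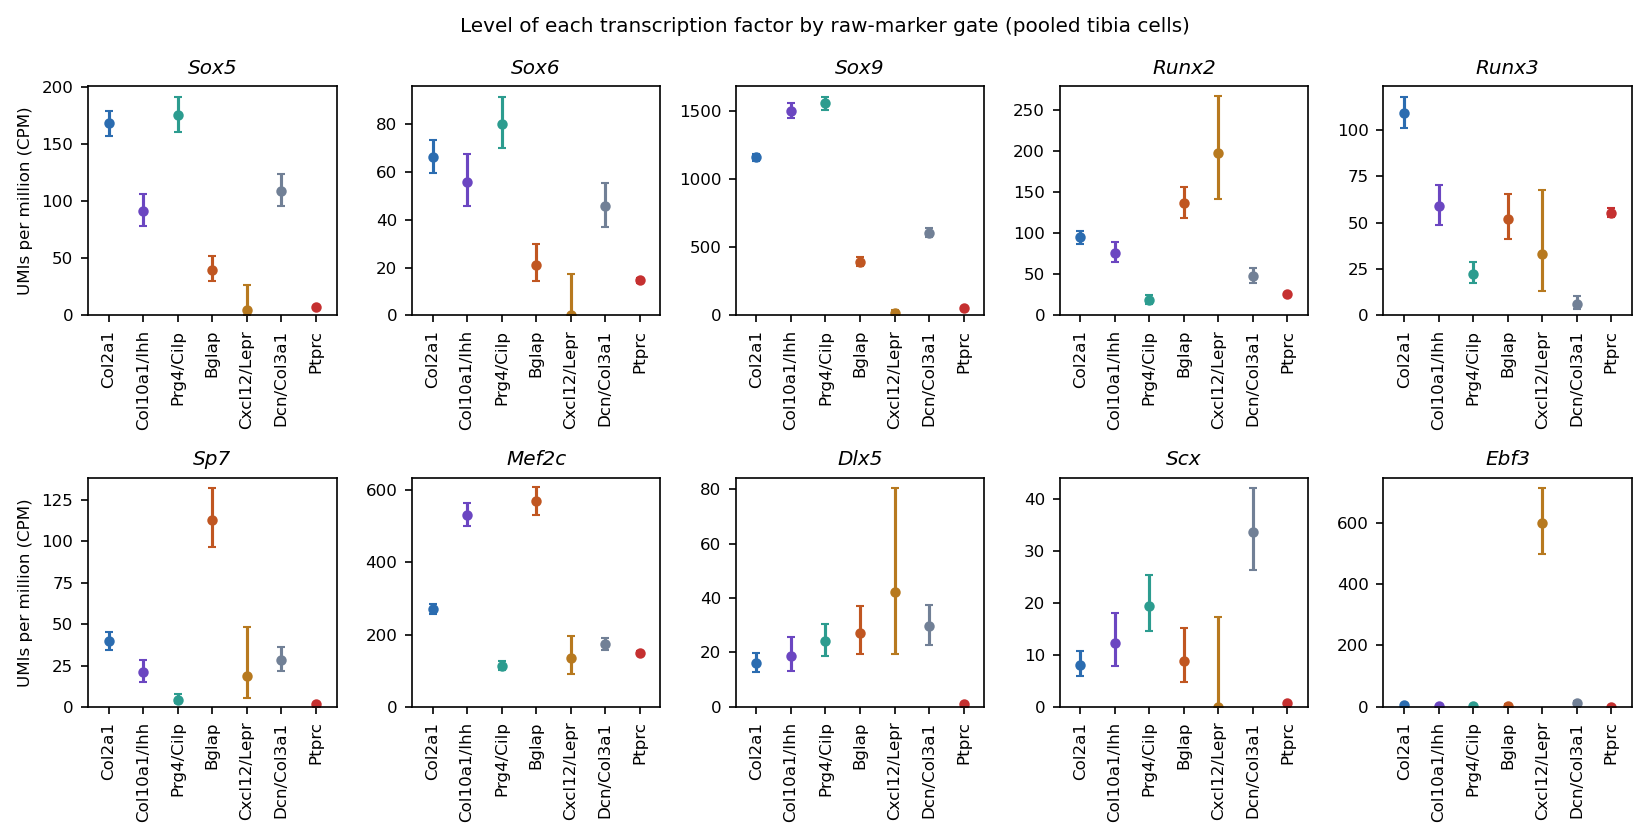
CPM of each of the 10 transcription factors (y axis, linear, from 0, with its own scale per gene) in the 7 gates (x axis); bars are exact Poisson 95% intervals of counting error in 1 pool. Sox9 stood at 1157 to 1553 CPM in the 3 cartilage gates, Sp7 peaked at 113 in the Bglap gate, and Ebf3 stood at 597 in the Cxcl12/Lepr gate and at no more than 12.4 elsewhere.

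Sox9 was high in all cartilage gates. It stood at 1553 CPM (1507 to 1600.1) in the Prg4/Cilp gate, 1498 (1444 to 1553) in the Col10a1/Ihh gate and 1157 (1129 to 1185) in the Col2a1 gate, of which the former 2 had intervals that met. It was 606 CPM (574 to 639) in the Dcn/Col3a1 gate, 393 (362 to 426) in the Bglap gate, 56.5 (54.2 to 58.8) in the Ptprc gate and 14.1 (2.91 to 41.2) in the Cxcl12/Lepr gate. The middle values came largely from shared cells. In the Bglap gate, Sox9 stood at 620.0 CPM in the 25 cells shared with the Col2a1 gate and at 18.0 in the other 29, and in the Dcn/Col3a1 gate at 1002 CPM in the 81 cells shared with the Prg4/Cilp gate and at 202 in the remainder. Sox9 UMIs were seen in 95.5% of Col2a1-gate cells and, as a background, in 1.53% of the 3196 Ptprc cells outside the skeletal gates, at medians of 19589 and 9804.5 UMIs. With every cell thinned to 3000 UMIs, the shares were 85.8% and 0.505%.

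Sox5 and Sox6, the partners of Sox9, had their highest levels among the 7 gates in cartilage gates as well. Sox5 stood at 175 CPM (159.9 to 191) in the Prg4/Cilp gate and 168 (157 to 179) in the Col2a1 gate, whose intervals met, then at 109 (95.9 to 124) in the Dcn/Col3a1 gate, 91.2 (78.3 to 106) in the Col10a1/Ihh gate and 40.0 (30.5 to 51.6) in the Bglap gate. It was 7.00 CPM (6.22 to 7.85) in the Ptprc gate and 4.70 (0.119 to 26.2) in the Cxcl12/Lepr gate. Sox6 ran from 80.0 CPM (69.9 to 91.2) in the Prg4/Cilp gate through 66.1 (59.5 to 73.1) in the Col2a1 gate, 55.7 (45.8 to 67.2) in the Col10a1/Ihh gate and 45.5 (37.1 to 55.2) in the Dcn/Col3a1 gate to 21.0 (14.3 to 29.9) in the Bglap gate. Each of the first 4 Sox6 values met its neighbour's interval. No Sox6 UMI was seen in the 23 Cxcl12/Lepr cells, where 3 UMIs would give 14.1 CPM. Reads of Sox5 may include its antisense neighbour Sox5os1, whose exons overlap, since the strand setting of the counting was not stated.

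To ask how the trio separated cartilage from bone cells, the Col2a1 gate was set against the Bglap gate, leaving out the 25 shared cells (218 against 29 cells). Sox9 was 1260.4 against 18.0 CPM, from 5979 and 10 UMIs, a log2 ratio of 6.13 (5.25 to 7.19). For Sox5 it was 4.39 (3.16 to 6.02) and for Sox6 2.77 (1.63 to 4.23). With doubled gate thresholds Sox9 was 7.69 and Sox5 6.52, on 1 Sox5 UMI in 21 Bglap cells, and with each cell weighing the same Sox9 was 4.75. Without barcodes holding Ptprc, Sox6 was 5.08, on 1 UMI in 23 Bglap cells. The members had 4 genes at least 2-fold higher in the Col2a1 gate (the trio and Runx3) and 3 in the Bglap gate (Sp7, Mef2c and Dlx5), where the shares over all 10203 genes with 20 UMIs or more were 22.6% and 8.95%. Of the genes listed as targets of the trio, 8 of 9 were at least 2-fold higher in the Col2a1 gate, with a median log2 ratio of 6.97 against 0.26 over all genes. Acan, the core protein of the main cartilage proteoglycan, stood at 5728 against 43.2 CPM, and Col9a1, a chain of the collagen that coats cartilage fibrils, at 3692 against 5.40. Col2a1 itself defined a gate and was not counted.

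Between the Prg4/Cilp and Col2a1 gates, the trio and its target genes did not run in parallel. Between the Prg4/Cilp gate and the Col2a1 gate (197 against 231 cells) the log2 ratio was 0.06 (−0.10 to 0.22) for Sox5, 0.30 (0.05 to 0.54) for Sox6 and 0.43 (0.37 to 0.48) for Sox9. Of the target genes, 7 of 8 were at least 2-fold lower in the Prg4/Cilp gate, with a median log2 ratio of −2.23 against 0.07 over all genes. Col9a1 was 582 against 3561 CPM and Matn1, a cartilage matrix protein, 19.02 against 208. The Col2a1 gate selects cells for Col2a1, itself a listed target. Of the 197 Prg4/Cilp cells, 81 were also in the Dcn/Col3a1 gate, and these had Col9a1 at 109 CPM. How far the choice of cells shaped these ratios was not tested. Members with 2-fold differences were Scx, higher in the Prg4/Cilp gate, and Runx2, Runx3, Sp7 and Mef2c, higher in the Col2a1 gate, where 11.8% and 8.95% of 11291 genes were that much higher in the former and the latter. The Mef2c value rested on cells shared with the Col10a1/Ihh gate. Without them the Col2a1 gate stood at 122 CPM, against 114 in the Prg4/Cilp gate. Mef2c was in 53.8% of the Prg4/Cilp cells and 54.98% of the Col2a1 cells compared.

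Runx2, the osteoblast and hypertrophy factor, was high in stroma, bone and part of the cartilage. Its level was 198 CPM (142 to 267) in the Cxcl12/Lepr gate and 137 (119 to 157) in the Bglap gate, whose intervals met, and 95.03 (87.2 to 103) in the Col2a1 gate and 76.5 (64.8 to 89.7) in the Col10a1/Ihh gate, which met as well. It was 47.7 CPM (39.1 to 57.6) in the Dcn/Col3a1 gate, 26.2 (24.6 to 27.8) in the Ptprc gate and 19.02 (14.2 to 24.9) in the Prg4/Cilp gate. Runx2 UMIs were in 88.9% of Bglap cells, 77.0% of Col2a1 cells, 69.6% of Cxcl12/Lepr cells and 12.7% of Prg4/Cilp cells. Thinned to 3000 UMIs, the order among them became 39.8% in the Cxcl12/Lepr gate, 35.8% in the Bglap gate, 24.6% in the Col2a1 gate and 4.17% in the Prg4/Cilp gate, against 6.21% in Ptprc cells outside the skeletal gates. The Bglap gate without shared cells exceeded the Col2a1 gate by a log2 ratio of 0.82 (0.48 to 1.16). Exons of Runx2 overlap those of the antisense gene Runx2os1.

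Runx3, its close relative, had another order across the gates. Among the 7 gates it was highest in the Col2a1 gate, at 109 CPM (101 to 118), and then at 58.8 (48.6 to 70.5) in the Col10a1/Ihh gate, 55.4 (53.2 to 57.7) in the Ptprc gate, 52.2 (41.2 to 65.3) in the Bglap gate and 32.9 (13.2 to 67.8) in the Cxcl12/Lepr gate, each of which met the interval above it from the Ptprc gate on. It was 22.6 CPM (17.4 to 28.9) in the Prg4/Cilp gate and 6.18 (3.38 to 10.4) in the Dcn/Col3a1 gate. Set against the Col2a1 gate, the Dcn/Col3a1 gate was lower by a log2 ratio of −5.19 (−6.64 to −4.06) for Runx3 and of −1.53 (−1.94 to −1.15) for Runx2. Runx3 was also lower in the Col10a1/Ihh gate than in the rest of the Col2a1 gate (79 against 200 cells), with a log2 ratio of −1.03 (−1.34 to −0.74). In that comparison 1 member, Mef2c, was 2-fold higher in the Col10a1/Ihh gate and 4 were lower (Sox5, Runx3, Sp7 and Ebf3, the last on 5 and 28 UMIs), beside 5.68% and 13.5% of 10546 genes. The Sp7 value there, 20.8 against 43.6 CPM, depended on the cells taken. It was less than 2-fold against the Col2a1 gate without Bglap cells (31.0 CPM), a group that kept cells shared with the Col10a1/Ihh gate. It was also less than 2-fold when the Col10a1/Ihh gate had only Ihh-positive cells (28.1 CPM). Runx3 was under 2-fold too with only these Ihh-positive cells, at 78.7 against 120.3 CPM. Its share was then 75.6% of cells, against 71.5% in the rest of the Col2a1 gate.

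Sp7, the osteoblast factor downstream of Runx2, was highest in the Bglap gate. It stood at 113 CPM (96.8 to 132) in the Bglap gate, 39.6 (34.6 to 45.1) in the Col2a1 gate, 28.3 (21.8 to 36.1) in the Dcn/Col3a1 gate, 20.8 (14.9 to 28.2) in the Col10a1/Ihh gate, 18.8 (5.13 to 48.2) in the Cxcl12/Lepr gate and 4.31 (2.22 to 7.52) in the Prg4/Cilp gate. From the Col2a1 gate down, each interval met the one above. The Ptprc gate stood at 1.66 CPM (1.29 to 2.10), and 3 of 3196 Ptprc cells outside the skeletal gates held a Sp7 UMI. Without shared cells, the Bglap gate exceeded the Col2a1 gate by a log2 ratio of 2.38 (1.99 to 2.77), at 162 against 31.0 CPM. Sp7 UMIs were in 66.7% of Bglap cells and 40.3% of Col2a1 cells, and in 25.7% and 9.13% at 3000 UMIs.

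Dlx5, the homeobox factor, was low in every gate. It ran from 42.3 CPM (19.4 to 80.3) in the Cxcl12/Lepr gate through 29.6 (22.9 to 37.6) in the Dcn/Col3a1 gate, 27.1 (19.4 to 37.0) in the Bglap gate, 24.0 (18.6 to 30.5) in the Prg4/Cilp gate and 18.7 (13.2 to 25.8) in the Col10a1/Ihh gate to 16.1 (12.9 to 19.7) in the Col2a1 gate, and all neighbours met. The Dcn/Col3a1 gate exceeded the Col2a1 gate without their shared cells by a log2 ratio of 0.95 (0.42 to 1.47). The Ptprc gate stood at 1.08 CPM (0.79 to 1.45). The Bglap gate without shared cells exceeded the Col2a1 gate by a log2 ratio of 1.15 (0.32 to 1.92), on 18 and 69 UMIs, and by 0.84 (−0.11 to 1.68) without the cell that held most, which is under 2-fold.

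Of the 10 listed target genes of Runx2, Sp7 and Dlx5 that could be compared, 6 were at least 2-fold higher in the Bglap gate than in the Col2a1 gate and 2 were lower, beside 8.95% and 22.6% of all genes, with a median log2 ratio (Col2a1 over Bglap) of −1.31 against 0.26. Those higher included Col1a1, the main bone collagen chain, at 59459.8 against 93.8 CPM, and Dmp1, a matrix protein of osteocytes, at 219 against 9.06. The 2 that were higher in the Col2a1 gate were Col10a1 (3854 CPM against 0 UMIs, at least 714-fold higher) and Ihh (150.3 against 7.19), both genes of hypertrophic or prehypertrophic chondrocytes. These values leave out the cells shared by the gates. With the shared cells, Col10a1 stood at 3719 CPM in the Col2a1 gate and 1881 in the Bglap gate, and Ihh at 148 and 88.2. Bglap and its near-identical copy Bglap2, between which reads may be divided, were not counted where they defined the gate.

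Mef2c, the hypertrophy factor, had its highest levels among the 7 gates in a pair of them. It stood at 569 CPM (531 to 609) in the Bglap gate and 532 (500.2 to 565) in the Col10a1/Ihh gate, whose intervals met, and at 269.7 (256 to 284) in the Col2a1 gate, 174 (157 to 192) in the Dcn/Col3a1 gate, 150.4 (147 to 154) in the Ptprc gate, 136 (91.3 to 196) in the Cxcl12/Lepr gate and 114 (102 to 128) in the Prg4/Cilp gate. Mef2c was seen in 53 of 54 Bglap cells and in 28 of the 29 outside the Col2a1 gate. The Col10a1/Ihh gate exceeded the rest of the Col2a1 gate by a log2 ratio of 2.12 (1.97 to 2.28), and by 3.23 when cells of further gates, other than those in the Col2a1 and Prg4/Cilp gates alone, were left out (33 against 177 cells). Of its listed targets, Col10a1 defined this gate and could be counted only in other comparisons, such as that of the Col2a1 and Bglap gates above.

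The Col10a1/Ihh gate held cells of different kinds, which a split by Ihh separated. This split was chosen after the values had been seen. The 41 Ihh-positive cells, of which 40 were also in the Col2a1 gate and 10 in the Bglap gate, stood at a median of 33765 UMIs. The 38 Ihh-negative cells, of which 34 were also in the Prg4/Cilp gate, stood at 13861. Cells with more than 14 UMIs of WPRE, the viral end of the tdTomato transcript, which the study counts as HC-derived, numbered 20 of 41 and 25 of 38.

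Mef2c was seen in 41 of 41 Ihh-positive cells at 732 CPM and in 39.5% of Ihh-negative cells at 59.5, a log2 ratio of 3.62 (3.14 to 4.15). Runx2 was seen in 95.1% and 13.2% of cells, at 102 against 17.0 CPM, with a log2 ratio of 2.58 (1.66 to 3.67). Runx3 was seen in 75.6% and 10.5%, at 78.7 against 11.9 CPM (2.72, 1.63 to 4.07). Sp7 was seen in 58.5% of Ihh-positive cells and in 1 Ihh-negative cell, with a log2 ratio of 3.05 (1.10 to 6.15). The Sox trio ran the other way when all cells were used: Sox9 was 1060.1 against 2529 CPM, with a log2 ratio of −1.25 (−1.36 to −1.15), and it was −1.14 (−1.58 to −0.70) for Sox5 and −0.97 (−1.54 to −0.40) for Sox6. Dlx5 stood at 22.4 against 10.2 CPM with an interval that held 0 (1.13, −0.15 to 2.69), and Scx at 12.3 against 11.9. All 79 cells of the gate were also in another skeletal gate. With only those kept that were in the Col2a1 gate and in no further one, 30 Ihh-positive and 3 Ihh-negative cells remained. The log2 ratio of Sox9 then turned to 0.47 (0.13 to 0.84), that of Mef2c was 2.12 (1.39 to 2.97), and those of Sox5, Sox6, Runx2, Runx3 and Sp7 had intervals that held 0. With all cells, 5 of 9 members were at least 2-fold higher in Ihh-positive cells and 2 were lower, beside 12.7% and 13.5% of 6943 genes. Of the target genes of the trio, 9 of 10 were at least 2-fold higher in the Ihh-positive cells, with Col2a1 at 56312 against 12579 CPM and Matn1 at 682 against 11.9. Of the targets of Runx2, Sp7 and Dlx5, 8 of 10 were higher, among them Alpl, the phosphatase of mineralizing cells, at 1447 against 262 CPM, and Mmp13, a collagenase, at 204 CPM against 0 UMIs, which makes it at least 40.1-fold higher. In pooled level, genes of blood cells ran the same way as Mef2c, Runx2 and Runx3: S100a8, a neutrophil gene, stood at 2109 CPM in Ihh-positive and 156 in Ihh-negative cells (92.7% and 86.8% of cells), and Lyz2, a gene of myeloid cells, at 123 and 28.9. Per cell, the median was 3 S100a8 UMIs in Ihh-positive and 2 in Ihh-negative cells, a smaller gap than that of the pooled levels. The part of blood RNA in these values was not tested.

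Scx, the tendon factor, was highest in the Dcn/Col3a1 gate at 33.6 CPM (26.4 to 42.0), followed by 19.4 (14.6 to 25.3) in the Prg4/Cilp gate, 12.2 (7.79 to 18.1) in the Col10a1/Ihh gate, 8.82 (4.70 to 15.1) in the Bglap gate and 8.13 (5.95 to 10.8) in the Col2a1 gate. The first interval met no other, and the remaining neighbours met. It was 0.674 CPM (0.448 to 0.974) in the Ptprc gate and was not seen in the 23 Cxcl12/Lepr cells. Scx was detected in 24.4% of Dcn/Col3a1 cells, in 10.4% at 3000 UMIs, so that most cells of the gate gave no Scx UMI at this depth. In the Prg4/Cilp gate Scx was seen in 27.2% of the 81 cells shared with the Dcn/Col3a1 gate and in 5.17% of the others. Without the cells shared with the Col2a1 gate (151 against 230 cells), the Dcn/Col3a1 gate exceeded it by a log2 ratio of 2.27 (1.69 to 2.86). Of the members, Scx and Ebf3 were 2-fold higher in the Dcn/Col3a1 gate and Runx2, Runx3 and Sp7 lower, beside 16.1% and 10.2% of 11171 genes. The Ebf3 value came from 27 against 28 UMIs and ran against its share of cells, which was 7.28% in the Dcn/Col3a1 gate and 10.9% in the Col2a1 gate, and the Dcn/Col3a1 gate holds 2 cells of the Cxcl12/Lepr gate. Of 5 listed Scx targets, 4 were at least 2-fold higher there, with a median log2 ratio of 5.41 against 0.12 over all genes. They included Tnmd (tenomodulin), a membrane protein of tendon cells, at 43.6 against 0.566 CPM, and Thbs4, a matrix protein of tendon, at 489 against 11.5.

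Ebf3 was concentrated in the Cxcl12/Lepr gate. It stood there at 597 CPM (498 to 711), in 22 of 23 cells and in 74.8% at 3000 UMIs. The next levels were 12.4 CPM (8.22 to 17.9) in the Dcn/Col3a1 gate and 5.12 (3.43 to 7.36) in the Col2a1 gate. The Prg4/Cilp gate (4.31), the Bglap gate (4.07) and the Col10a1/Ihh gate (2.53) had intervals that met their neighbours, and the Ptprc gate stood at 0.529 CPM. The Cxcl12/Lepr gate exceeded the Bglap gate by a log2 ratio of 7.20 (6.03 to 8.67), from 127 and 6 UMIs. Without barcodes in several skeletal gates the ratio fell below this interval, as given in the closing section. In that comparison Sox5, Sox9, Sp7 and Mef2c were at least 2-fold higher in the Bglap gate and Ebf3 lower, of 9 members, beside 11.6% and 28.7% of 6945 genes. The Sox values rested on cells shared with the Col2a1 gate, since in the 29 Bglap cells outside it Sox9 stood at 18.0 CPM and Sox5 at 8.99, near the 14.1 and 4.70 of the Cxcl12/Lepr gate, while Sp7 stood at 162 and Mef2c at 595. The Cxcl12/Lepr cells were shallower, at a median of 7733 against 25759.5 UMIs. Kitl, the stem cell factor gene listed as an Ebf3 target, stood at 973 CPM in the Cxcl12/Lepr gate and 4.75 in the Bglap gate. Ebf1, a relative of Ebf3, was 767 against 51.6 CPM and Foxc1, another factor of this stroma, 419 against 38.0. In gates of 43 mural and 49 endothelial cells, each of which shares 3 cells with the Cxcl12/Lepr gate, Ebf3 stood at 114 CPM (83.6 to 151) and 81.5 (58.3 to 111), with 34.0% and 40.0% of these UMIs in 1 cell each. Exons of Ebf3 overlap those of the antisense gene Gm45278.

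In blood cells, 4 of the 10 factors were found at levels near or above those of skeletal gates. Values here are for barcodes that met a single blood gate. In 134 plasmacytoid dendritic cells (at least 2 Siglech UMIs), Mef2c stood at 601 CPM, Runx3 at 489 and Runx2 at 248, in 94.0%, 91.0% and 76.9% of cells. At 3000 UMIs, Runx2 was in 48.8% of them, against 35.8% in the Bglap gate. In 708 B-lineage cells Mef2c stood at 313 CPM in 80.5% of cells while Runx2 was in 2.97%. In 264 T or NK cells Runx3 stood at 92.05 CPM in 61.4%. In 265 erythroid barcodes without Ptprc, Sox6 stood at 367 CPM (348 to 387) in 89.1% of cells, where Sox5 and Sox9 were each in 5.66%. The plot of shares and levels over 16 gates sets these beside the skeletal gates.

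**Figure D2:**
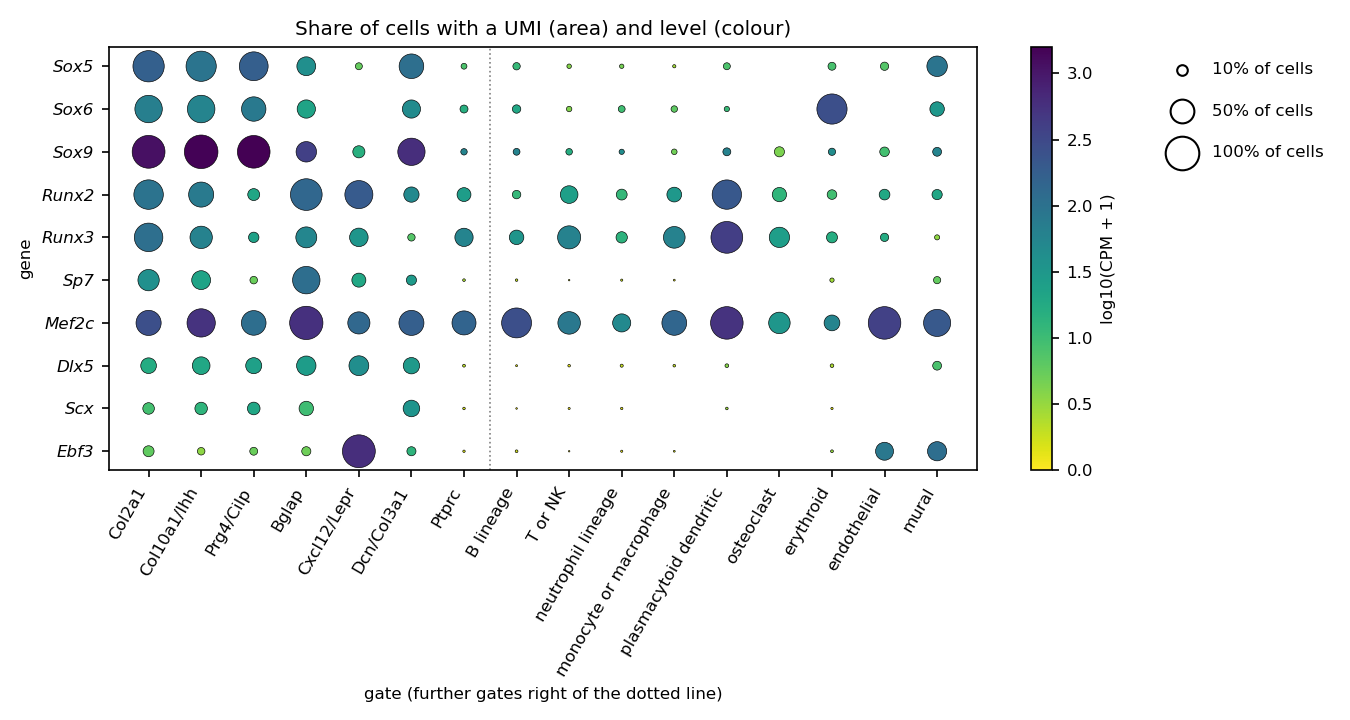
Share of cells with at least 1 UMI (circle area) and level as log10 of CPM plus 1 (colour) for the 10 factors (rows) in the 7 gates and 9 further gates (columns, right of the dotted line); gates overlap and all come from 1 pool. Sp7, Dlx5 and Scx have their larger circles left of the line, while Mef2c reaches 93.8% of the plasmacytoid dendritic gate and Sox6 80.8% of the erythroid gate.

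Co-detection in single cells was counted for all 45 pairs. In the Col2a1 gate, Sox5 and Sox9 were found together in 211 of 243 cells (86.8%, 81.9% to 90.8%), so that every cell with Sox5 also held Sox9, while 65.6% of the 32 cells without Sox5 did. The trio was complete in 150 cells (61.7%, 55.3% to 67.9%). Of the 11 Col2a1-gate cells without a Sox9 UMI, each held Runx2 and Mef2c and none held Runx3. The gate without the cells shared with the Bglap gate had 217 of 218 cells with Sox9.

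Cartilage and bone factors shared cells. In the Col2a1 gate, Sox9 was found with Runx2 in 72.4% of cells (66.4% to 77.9%) and with Sp7 in 36.6% (30.6% to 43.0%), and Runx2 with Runx3 in 53.9% (47.4% to 60.3%). Runx3 was in 70.1% of cells with Runx2 and 78.6% of cells without it, at medians of 22971 and 16164.5 UMIs. Mef2c was in 52.1% of cells with Sox5 and in 81.2% of the 32 without. These shares depend on depth. Thinned to 3000 UMIs, Runx2 and Runx3 were together in 5.93% of cells, where the product of their shares gives 6.51%, and Sox9 and Runx2 in 20.2%, where it gives 21.1%.

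Bone-type cells outside the Col2a1 gate held another set. Of these 29 Bglap cells, Runx2 and Mef2c were together in 24 (82.8%, 64.2% to 94.2%) and Runx2 and Sp7 in 17 (58.6%, 38.9% to 76.5%), and the complete Sox trio was in none, where 3 counts would be a share of 10.3% and which limits only the cells with UMIs of all 3. Of the 25 Bglap cells shared with the Col2a1 gate, 11 held the trio and 24 held Runx2, at medians of 32457 UMIs in these and 17423 in the others. In the Cxcl12/Lepr gate, Runx2 and Ebf3 were together in 15 of 23 cells (65.2%, 42.7% to 83.6%). In the plasmacytoid dendritic gate, Runx2, Runx3 and Mef2c were together in 101 of 161 cells (62.7%, 54.8% to 70.2%) at a median of 6666 UMIs. The median number of the 10 factors seen in a cell was 5 in the Col2a1 and Col10a1/Ihh gates, 4 in the Bglap gate, 3 in the Prg4/Cilp, Cxcl12/Lepr and Dcn/Col3a1 gates and 1 in the Ptprc gate.

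**Figure D3:**
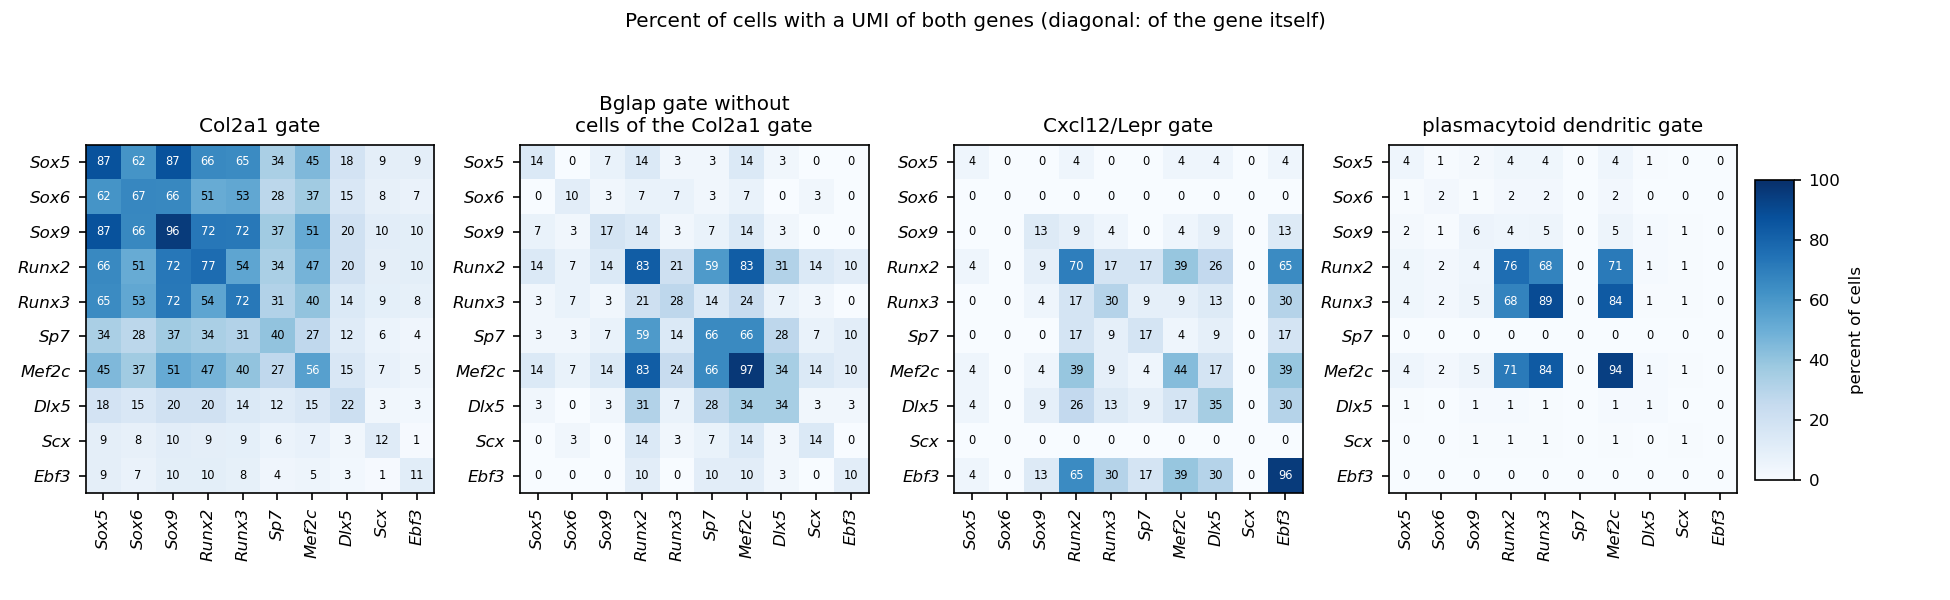
Percent of cells with a UMI of both genes (colour and number, rounded) for each pair of the 10 factors, with the share of the gene alone on the diagonal, in 4 groups of cells of unequal depth. The Sox trio block is filled in the Col2a1 gate and nearly empty in Bglap cells outside it, where Runx2 and Mef2c share 82.8% of cells, and the plasmacytoid dendritic gate is filled for Runx2, Runx3 and Mef2c.

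To compare HC-derived with non-HC-derived cells at the study's threshold, cells with more than 14 WPRE UMIs were set against the others in the Bglap and Cxcl12/Lepr gates. The study made its own comparison over osteogenic cells of P56 and of a younger age together, so its cells and ages were unlike those here. In the Bglap gate (17 against 37 cells), Sp7 stood at 166 CPM (129 to 211) against 93.0 (75.6 to 113), a log2 ratio of 0.84 (0.37 to 1.30), or 0.41 (−0.12 to 0.93) without the cell that held most Sp7 UMIs. Runx2 stood at 188 (149 to 235) against 117 (97.7 to 139.9), a ratio of 0.68 (0.25 to 1.10). Mef2c was level at 567 and 570.2 CPM (−0.01, −0.23 to 0.21), and Dlx5 and Sox6 had intervals that held 0. Sox9 stood at 46.4 against 526 CPM (−3.50, −4.24 to −2.85), Sox5 at 9.78 against 51.7 (−2.40, −4.33 to −0.96) and Runx3 at 26.9 against 62.0 (−1.21, −2.28 to −0.27). None of 8 members was 2-fold higher in HC-derived cells and 3 were lower, beside 5.43% and 11.4% of 6027 genes.

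The values of Sox9, Sox5, Sp7, Runx2 and Runx3 moved without the cells shared with the Col2a1 gate. With the shared cells left out, an alternative added after the data had been seen, 11 HC-derived and 18 other cells remained. The log2 ratio became 0.18 (−0.45 to 0.81) for Sp7 and 0.25 (−0.39 to 0.88) for Runx2, and for Runx3 it changed sign to 0.98 (−0.62 to 2.73), on 10 against 6 UMIs. All 3 intervals held 0. Sox9 was seen in none of the 11 HC-derived cells and with 10 UMIs in the others, and Sox5 in none and with 5 UMIs. The plot of log2 ratios shows both sets.

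**Figure D4:**
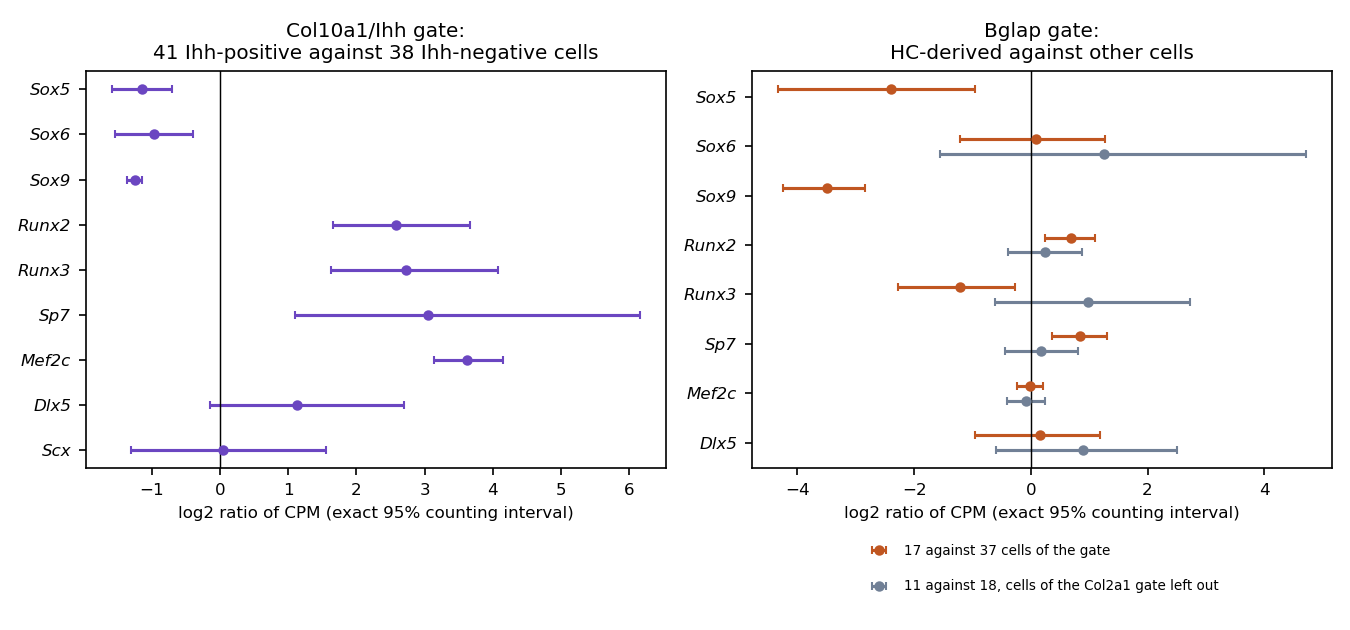
Log2 ratio of CPM with exact 95% counting intervals for the factors with at least 20 UMIs, between Ihh-positive and Ihh-negative cells of the Col10a1/Ihh gate (left) and between HC-derived and other cells of the Bglap gate (right), the latter with all cells in orange and without those of the Col2a1 gate in grey. On the left, where all cells of the gate are used, Mef2c stands at 3.62 and Sox9 at −1.25; on the right the orange Sox9 point at −3.50 has no grey partner, nor has Sox5, since the remaining HC-derived cells held 0 UMIs of either.

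In the Cxcl12/Lepr gate (10 HC-derived against 13 other cells), Ebf3 stood at 748 CPM (587 to 939) against 466 (349 to 609.7), a log2 ratio of 0.68 (0.15 to 1.22), and was seen in 9 of 10 and 13 of 13 cells. With the threshold at more than 4 WPRE UMIs the ratio was 0.01. Runx2 stood at 243 against 158 CPM with an interval that held 0 (0.62, −0.33 to 1.58). Mef2c stood at 70.7 against 193 CPM (−1.45, −2.92 to −0.17), but 63.6% of the 22 UMIs in the other cells lay in 1 cell, and the ratio was −0.21 without it. The same threshold of 4 gave 1.41. Of 3 members with 20 UMIs, none was 2-fold higher and 1 was lower, beside 5.26% and 12.5% of 1769 genes.

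Among 40 further skeletal transcription factors and partners, 30 could be compared between the Col2a1 and Bglap gates, of which 14 were at least 2-fold higher in the Col2a1 gate and 6 in the Bglap gate, beside 22.6% and 8.95% of all genes. Their median log2 ratio was 0.71 against 0.26 over all genes. Twist1, which restrains Runx2, was 13.3-fold higher in the Bglap gate (199.6 against 14.97 CPM). Lef1, a factor of Wnt signalling, was 11.7-fold higher in the Col2a1 gate. Between the Prg4/Cilp gate and the Col2a1 gate, 13 of 36 were higher and 6 lower, beside 11.8% and 8.95%. Barx1, a joint-region homeobox gene, stood at 39.8 against 0.374 CPM (from 2 UMIs), Erg, an ETS factor of articular chondrocytes, at 15.4 against 0.935, and Prrx1 at 153 against 20.02. Foxa2, a factor of hypertrophic chondrocytes, ran the other way at 2.51 against 19.8 CPM, and in the Col10a1/Ihh gate it was 51.2 CPM in Ihh-positive and 8.50 in Ihh-negative cells. In the Dcn/Col3a1 gate, 12 of 38 were higher than in the Col2a1 gate, led by Barx1 and by Prrx2 at 97.7 against 1.70 CPM, and 5 were lower, beside 16.1% and 10.2%.

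The genes whose levels were most like those of each factor were ranked by Pearson's r of log2 of CPM plus 10 over the 16 gates, among 11779 genes outside the gate definitions. The gates share cells and a library, and r is a description. Comp, a cartilage matrix protein and a listed target of the trio, was among the 3 nearest to Sox9 (0.966), beside Meltf (0.966) and Kif21a (0.963). Sox5 was nearest to Tceal3 (0.981), Runx2 to Vdr, the vitamin D receptor gene (0.923), and Runx3 to Dusp5 (0.840) and Batf (0.815), a factor of lymphocytes. Sp7 was nearest to Gxylt2 (0.960), Wisp1 (0.934) and Dmp1 (0.929), and Ebf3 to Fbln5 (0.990), Gdpd2 (0.988) and Esm1 (0.986). Mef2c was nearest to Slc44a2 (0.915), Dlx5 to Fap (0.963), Scx to D630045J12Rik (0.965) and Sox6 to Dnajb2 (0.914). Between members the highest values were 0.90 for Sox5 and Sox9, 0.86 for Sox9 and Scx and 0.80 for Sp7 and Dlx5, while Runx2 and Runx3 gave 0.62.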

How the data were processed

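Cells of the tibiae of 3 mice at P56 were sequenced from the 3′ end and pooled. The authors deposited raw counts of UMIs per gene and barcode, made with Cell Ranger 3.1.0 on mm10 per the file headers. The submitters' notes also name Seurat 3. Neither annotation release nor strand setting is given in the sources used here. All 8 labelled samples share 1 matrix and were treated as 1 sample.

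The members, gates, gene lists and tests were chosen with earlier results of these data known. Barcodes with at least 1600 genes were gated on raw UMIs. UMIs were summed per gate and given as CPM with exact Poisson intervals, shares of cells with Clopper-Pearson intervals, and log2 ratios with exact conditional intervals, all at 95%. Genes with at least 20 UMIs in a comparison were counted, and called at 2-fold. A gene at 0 was set at a floor of 3 counts over the group. Cells in both gates compared were left out, except that cells of the Col10a1/Ihh and Prg4/Cilp gates stayed in those when set against the Col2a1 gate. Thinned shares are expectations at 3000 UMIs, which no gated cell fell below. All 10 members were named, with other listed factors and targets at 4-fold or more or as counts, and 1 to 3 of the 3 nearest genes of each, picked after their values were seen. Scrublet (scanpy 1.11.5, expected rate 6%) marked 3.54% of barcodes, which were kept and left out in an alternative. Intervals and ratios used scipy 1.17.1 and were tested on simulated data. Coordinates are of GENCODE M21 (GRCm38) and windows of RefSeq, which had entries for 6 of the 10 members.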

Additional observations from a re-analysis of the deposited data

How the results depend on the processing

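Without replicates, no value has a check beyond counting error, and gates of 23 and 54 cells limit what could be seen for Dlx5, Scx and Ebf3. No paired analysis was possible because the samples form 1 group in 1 pool. Alternatives were run for 10 differences between gates, 1 per member, and not for the other gate comparisons or the target lists. Of these, 82 of 90 alternative values stayed within the interval of the value reported, 8 moved outside it and none changed sign. Of 140 values for HC-derived against other cells, 15 moved outside it and 3 changed sign, and of 81 for the split by Ihh, 9 and 2. Changes of sign were counted only where the value reported was at least 2-fold. Weighing each cell the same gave Sox9 4.75 and Runx3 −1.60 (log2). Doubled gate thresholds gave Sox9 7.69 and Sox5 6.52. Without barcodes holding Ptprc, Sox6 was 5.08 and Mef2c 2.47. Without barcodes in several skeletal gates, other than those in the Col2a1 gate and only 1 of the Col10a1/Ihh and Prg4/Cilp gates, Mef2c was 3.23 and Ebf3 5.91.

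Between HC-derived and other Bglap cells, leaving out the same barcodes gave −0.17 for Sox5, −1.17 for Sox9, 0.25 for Runx2, 0.01 for Sp7 and, with the sign changed, 0.57 for Runx3. Leaving out the cells of the Col2a1 gate gave −0.49, −1.49, 0.25, 0.18 and, with the sign changed, 0.98. In both, HC-derived cells were at 0 for Sox9 and Sox5 and were set at the floor of 3 counts. With HC-derived cells called at more than 4 WPRE UMIs, Sox9 was −2.20 and Mef2c −0.36, and at more than 9 Sox9 was −4.30. Runx3 was −3.06 at more than 19 and −2.81 without Ptprc barcodes. In the Cxcl12/Lepr gate, Mef2c changed sign to 1.41 at more than 4 WPRE UMIs and was −0.09 with doubled thresholds, and Ebf3 was 0.01 at more than 4. For the split by Ihh, Sox9 (0.47) and Dlx5 (−0.41) changed sign under the same rule, which kept 30 Ihh-positive and 3 Ihh-negative cells, all of them also in the Col2a1 gate. The cause of these shifts was not tested.

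Thinned to 3000 UMIs, the share of cells with a UMI was 41.0% for Sox5, 18.8% for Sox6, 85.8% for Sox9 and 26.5% for Runx3 in the Col2a1 gate, 35.8% for Runx2, 25.7% for Sp7 and 6.74% for Dlx5 in the Bglap gate, 47.6% for Mef2c in the Col10a1/Ihh gate, 10.4% for Scx in the Dcn/Col3a1 gate and 74.8% for Ebf3 in the Cxcl12/Lepr gate. The pairs were at 37.6% (Sox5 and Sox9), 17.1% (Sox6 and Sox9), 5.93% (Runx2 and Runx3), 11.5% (Runx2 and Sp7, Bglap gate) and 27.9% (Runx2 and Ebf3, Cxcl12/Lepr gate).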
